A study of Mus musculus with 6 samples.

Results

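Cytochrome P450 enzymes of families 1 to 4 are haem proteins of the endoplasmic reticulum that put an oxygen atom on drugs, plant toxins, steroids and fatty acids, with electrons passed on by cytochrome P450 reductase. In the liver most of them are made by hepatocytes, many at a higher level near the central vein than near the portal vein. Their genes are controlled by the receptors AHR, CAR, PXR and PPARα and by liver factors such as HNF4A, and inflammation is a textbook setting in which their transcripts fall. The members were the genes whose symbol has the form Cyp1 to Cyp4, a subfamily letter and a number, with at least 20 unique molecular identifiers (UMIs) over the 6 matrices. Cyp2e1, Cyp1a2 and Cyp2f2 were left out by name. Of 75 matching symbols, 3 were left out by name and 17 had too few UMIs, which left 55 members of 31253 features, 2 of them in family 1, 35 in family 2, 6 in family 3 and 12 in family 4.

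RNA of single liver cells was counted in 6 mouse libraries, 2 each from macro-metastatic, pre-metastatic and control livers. The macro-metastatic and pre-metastatic livers came from an orthotopic mouse model of colorectal cancer, and the labels give the genotype "ctrl" for the controls. CT26-GFP, a mouse colon carcinoma line that carries green fluorescent protein, is named for all 6 libraries, controls included, and neither the strain, sex or age of the mice nor the time of sampling is given in the sources used here. Whole livers were digested with collagenase II, cleared of red cells and dead cells, and captured on the BD Rhapsody system, so the cells are those that lived through digestion. Whether the 2 replicates of a group are different mice is not stated, so each p-value covers the spread of these libraries alone, part or all of which may be technical. Library totals ran from 41914149 UMIs (control) to 90819751 UMIs (macro-metastatic), and both macro-metastatic libraries were deeper than the other 4. Pairs of libraries shared 126 to 222 cell barcodes, or 1.19% to 1.87% of barcodes.

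All 55 members were found in the GENCODE annotation of GRCm38, the assembly that mm10 is named for. They lie in a few clusters, with 14 on chromosome 19 (the Cyp2c genes), 10 on chromosome 7 (Cyp2a, Cyp2b and neighbours), 10 on chromosome 4 (Cyp4a, Cyp4b1 and Cyp2j), 6 on chromosome 5 (Cyp3a), 6 on chromosome 17 (mostly Cyp4f) and 5 on chromosome 15 (Cyp2d). Neighbours in these clusters are near copies. For 26 members, over 10% of the 31-base words in the last 500 bases of the transcript occur in another gene, so reads could be split between copies and the level of a single gene is uncertain. The share was 84.0% for Cyp2c40, 64.0% for Cyp2a4, 34.0% for Cyp2c54, 28.3% for Cyp2c37, 20.9% for Cyp2a5 and 13% for Cyp2b13.

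The 250 bases before the start are shown for 4 members that the results turn on, 3 hepatocyte enzymes of different subfamilies and Cyp4b1, the member of endothelial cells. The sequences are RefSeq promoters of GRCm38.p6, written 5′ to 3′ on the gene's own strand. Capitals mark a TATA box (TATAAA), an HNF4 element (CAAAGTNCA) or a FOXA site (TGTTTAC) found by letter search. The Cyp2a5 window is chr7:26835089-26835338 on the plus strand, Cyp2c29 is chr19:39286835-39287084 on the plus strand, Cyp3a11 is chr5:145879855-145880104 on the minus strand, and Cyp4b1 is chr4:115647722-115647971 on the minus strand.
Cyp2a5: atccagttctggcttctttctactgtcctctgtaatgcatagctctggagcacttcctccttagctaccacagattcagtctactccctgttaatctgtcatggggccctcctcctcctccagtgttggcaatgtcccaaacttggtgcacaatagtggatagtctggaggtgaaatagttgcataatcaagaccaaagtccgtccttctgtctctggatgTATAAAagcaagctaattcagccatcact
Cyp2c29: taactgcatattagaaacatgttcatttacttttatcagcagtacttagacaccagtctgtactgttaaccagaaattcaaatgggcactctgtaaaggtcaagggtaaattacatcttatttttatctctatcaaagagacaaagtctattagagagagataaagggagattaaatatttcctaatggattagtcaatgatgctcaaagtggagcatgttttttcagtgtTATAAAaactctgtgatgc
Cyp3a11: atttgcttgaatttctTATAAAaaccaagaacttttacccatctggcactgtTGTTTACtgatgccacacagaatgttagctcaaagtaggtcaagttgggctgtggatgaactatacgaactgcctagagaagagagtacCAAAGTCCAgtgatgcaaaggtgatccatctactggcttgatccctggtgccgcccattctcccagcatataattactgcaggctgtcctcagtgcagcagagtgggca
Cyp4b1: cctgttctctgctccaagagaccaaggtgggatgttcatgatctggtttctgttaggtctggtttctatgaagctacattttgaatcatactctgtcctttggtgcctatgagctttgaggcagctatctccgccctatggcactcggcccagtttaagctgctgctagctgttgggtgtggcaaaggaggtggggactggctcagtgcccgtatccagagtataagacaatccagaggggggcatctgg

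In these windows Cyp2a5 has its TATAAA at 29 to 24 bases before the RefSeq start and Cyp2c29 at 19 to 14. Cyp3a11 has TATAAA at 234 to 229, TGTTTAC at 198 to 192 and CAAAGTCCA at 109 to 101. GENCODE has these genes starting further upstream, at base 26835305 (Cyp2a5), 39269405 (Cyp2c29) and 145879964 (Cyp3a11) of their chromosomes. The whole Cyp2c29 window, the Cyp2a5 TATAAA and the Cyp3a11 CAAAGTCCA thus lie within the GENCODE genes. RefSeq promoters were matched for 46 of the 55 members. Searched on both strands, TATAAA occurred in 20 of these 46 windows (43.5%), against 13% of 27025 windows of all genes. CAAAGTNCA occurred in 11 (23.9%), all of them Cyp2c, Cyp2d26 or Cyp3a genes, against 1.21%, and TGTTTAC in 6 (13%), against 3.09%. GCGTG, the core of the AHR element, occurred in 9 (19.6%), Cyp1a1 and Cyp1b1 among them, against 28.2%. The HNF1 motif occurred in 1 member window (2.17%), against 0.411%, and ACCGGAAGT (ETS) in none, against 0.781%. None of the motifs searched was in the Cyp4b1 window. A match is a run of letters and not a shown site, and near-copy genes share such runs by descent.

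Cells were clustered without the P450 genes of families 1 to 4 and classes were named from markers, so no member named a class. The mean over the 6 libraries was highest in hepatocytes for 40 members and elsewhere for 15. Levels are counts per 1000000 UMIs (CPM), from the UMIs summed over a class in a library. All 6 Cyp3a genes and 28 of the family 2 genes were highest in hepatocytes, with 6 of family 4 and no member of family 1. The most abundant in hepatocytes were Cyp2c29, Cyp3a11, Cyp2c70 and Cyp2a5. In classes other than hepatocytes and cholangiocytes, the summed members that peak in hepatocytes stood at 0.345% to 7.19% of their hepatocyte level, and the 15 hepatocyte markers stood at 0.238% to 9.64% of theirs. The parts of free RNA and of synthesis in those low levels were not tested.

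Cyp4b1, which hydroxylates fatty acids and is best known for activating pneumotoxins in rodent lung, averaged 1000 CPM in endothelial cells, where 66413 of its 85587 UMIs in named classes lay. Cyp1a1, the classic AHR target, was also highest there at 16.6 CPM. Cyp1b1 and Cyp2s1 were highest in mesothelial cells, at 114 and 67.3 CPM. Cyp2j6 (122 CPM), Cyp2d22 (82.4 CPM) and Cyp4f14 (60.1 CPM) were highest in cholangiocytes, a class too small in some libraries to be tested. In cholangiocytes the hepatocyte markers stood at 7.31% to 49.9% of their hepatocyte level. The summed members that peak in hepatocytes stood at 2.22% to 20.7% there. Cyp4f14 rested on 48 UMIs in cholangiocytes, against 981 UMIs and 48.8 CPM in hepatocytes. The part of hepatocyte RNA in these 3 levels was not tested. Cyp4f18, which inactivates leukotriene B4 in mouse neutrophils, averaged 80.5 CPM in basophils and mast cells and 55.7 CPM in neutrophils. Cyp4f16 was highest in monocytes and macrophages at 47.3 CPM and Cyp4f13 in neutrophils at 4.77 CPM. Cyp4v3 was spread more evenly, with 69.6 CPM in hepatocytes, 48.6 in Kupffer cells and 41.4 in monocytes and macrophages.

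In hepatocytes the members together held 0.128% and 0.272% of macro-metastatic UMIs, 0.561% and 0.610% of pre-metastatic UMIs, and 1.09% and 0.681% of control UMIs. Both macro-metastatic values lie below all 4 others, and both pre-metastatic values lie below both controls. The group means were 0.200% ± 0.102, 0.585% ± 0.0345 and 0.884% ± 0.287 (SD, n = 2 each) in that order. No test was run on these shares, since the smallest p that 2 libraries against 2 allow in an exact permutation test is 0.3333. The depth behind these shares was very uneven, with 36 and 132 macro-metastatic hepatocytes holding 96 and 1241 member UMIs, 949 and 824 pre-metastatic hepatocytes holding 29683 and 19818, and 833 and 661 control hepatocytes holding 45251 and 16383. The 95% Wilson intervals of the macro-metastatic shares were 0.105% to 0.156% and 0.257% to 0.287%, which cover counting error only.

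Several other measures moved with the groups, and their part in the member levels was not tested. The 15 hepatocyte markers held 2.40% and 4.53% of hepatocyte UMIs in macro-metastatic libraries, 7.04% and 6.13% in pre-metastatic libraries, and 8.42% and 6.94% in control libraries. Endothelial markers (12 genes) held 1.05% and 0.449% of UMIs in macro-metastatic hepatocytes, 0.0960% and 0.250% in pre-metastatic and 0.317% and 0.324% in control hepatocytes. Kupffer markers (10 genes) held 0.650% and 0.223%, 0.0480% and 0.109%, and 0.0310% and 0.0280% in the same order. Neutrophil markers (12 genes) reached 0.196% and 0.157% in macro-metastatic hepatocytes and at most 0.0150% in the other libraries. Median UMIs per hepatocyte were 650 and 1458 in macro-metastatic, 2739 and 1797.5 in pre-metastatic, and 2224 and 2010 in control libraries.

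Much hepatocyte RNA lay in barcodes with at least 25% mitochondrial UMIs, which were left out. Leaving Cyp4b1 aside, these barcodes held 10.5% and 16.6% of a library's member UMIs in macro-metastatic, 15% and 30.2% in pre-metastatic, and 54.6% and 57.4% in control livers. As an alternative chosen after seeing the data, those with at least 2% of non-mitochondrial UMIs from hepatocyte markers, and more than from endothelial, Kupffer, neutrophil or T cell markers, were added to the hepatocytes. This gave 214 and 490 macro-metastatic, 1261 and 1429 pre-metastatic, and 1765 and 1599 control hepatocytes. The members then held 0.260% and 0.342% of non-mitochondrial UMIs in macro-metastatic, 0.642% and 0.775% in pre-metastatic, and 1.55% and 1.19% in control libraries. The 3 groups kept their order and did not overlap. Hepatocyte markers held 5.08% and 5.34% in macro-metastatic, 7.81% and 7.17% in pre-metastatic, and 11.2% and 9.24% in control libraries in this wider set. Kupffer markers there held 0.629% and 0.321% in macro-metastatic, 0.0527% and 0.106% in pre-metastatic, and 0.0266% and 0.0285% in control libraries. Neutrophil markers held 0.786% and 0.339% in macro-metastatic libraries and at most 0.0181% in the others.

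The member share also differed between hepatocyte clusters within a library. A cluster led by the acute-phase genes Orm2 and Saa1 held 27 and 49 macro-metastatic, 325 and 372 pre-metastatic, and 137 and 79 control cells. In it the members held 0.164% and 0.417% of UMIs in macro-metastatic, 0.878% and 0.958% in pre-metastatic, and 0.265% and 0.269% in control cells. In that cluster the pre-metastatic cells therefore stood above the controls, but the cells also differed in other RNA. Hepatocyte markers there held 1.83% and 4.55% of UMIs in macro-metastatic, 9.07% and 7.69% in pre-metastatic, and 1.02% and 1.24% in control cells. Acute-phase genes held 1.65% and 4.62%, 15.8% and 7.63%, and 0.16% and 0.45% in the same order. The part of these differences in the member shares was not tested. The highest member shares, 1.64% and 1.42%, were in a cluster of 297 and 115 control cells with hardly any cell of another group. Another control cluster of 396 and 459 cells had member shares of 0.352% and 0.293%. The last cluster, mostly pre-metastatic with 624 and 439 cells, held 0.188% and 0.251% there, against 0.0753% and 0.193% in 9 and 83 macro-metastatic cells. Its 3 and 8 control cells held 0.106% and 0.0695%, from 24 and 22 member UMIs. In neither cluster shared by macro-metastatic and control cells were both macro-metastatic member shares below both controls. In both of them, however, the control cells held less hepatocyte marker RNA than the macro-metastatic cells. In the last cluster it was 1.15% and 1.66% of control UMIs against 3.24% and 4.52% of macro-metastatic UMIs. The cells set side by side within a cluster are therefore not alike. The cluster with the highest member shares held no macro-metastatic cell. The control hepatocytes were thus made of cells with high and with low member shares, and a level summed over the class depends on their mix.

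Several members fell in macro-metastatic against control hepatocytes, Cyp2a5, Cyp3a11 and Cyp2c29 among them. Of the 55 members, 43 passed the filter on low counts, and 17 of these fell and none rose at an adjusted p under 0.05 in edgeR's quasi-likelihood test. Over all 10663 genes tested, 8.92% were called, 3.12% as lower and 5.8% as higher. The estimate was negative for 40 of the 43 members, and their median log2 fold change was -2.11, against -0.08 for all genes tested. Both macro-metastatic libraries were below both controls for 38 of the 43, against 25% of the 11003 genes with at least 30 UMIs. With the high-mitochondrial hepatocytes added, 36 members fell and 1 (Cyp4f16) rose of 47 tested, where 30.6% of all genes were called, and all 17 calls were kept.

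In hepatocytes of macro-metastatic library 1, 1 UMI was 13.3 CPM and 3 UMIs were 40.0 CPM, so values in that range rest on single molecules. Cyp2a5, the mouse coumarin 7-hydroxylase, had the lowest adjusted p. It stood at 13.3 and 67.9 CPM in macro-metastatic hepatocytes, 199 and 274 CPM in pre-metastatic hepatocytes, and 1164 and 637 CPM in control hepatocytes. The 3 groups did not overlap. Its log2 fold change was -4.42 ± 0.63 (SE) for macro-metastatic against control hepatocytes (edgeR adjusted p = 0.0032), and -2.49 ± 0.60 against pre-metastatic hepatocytes (adjusted p = 0.0454). It fell in every one of 15 alternatives, with an adjusted p of at most 0.0201. Cyp2a4, a steroid 15-alpha-hydroxylase that shares much of its transcript with Cyp2a5, had 13.3 and 74.4 CPM in macro-metastatic, 171 and 170.1 CPM in pre-metastatic and 510.2 and 232 CPM in control hepatocytes, and fell by 3.01 (log2, SE 0.61, edgeR adjusted p = 0.0158). Cyp2a12, a bile acid hydroxylase, fell by 1.93 (SE 0.46, edgeR adjusted p = 0.0287), with 53.3 and 118 CPM in macro-metastatic, 181 and 177 CPM in pre-metastatic and 350.1 and 242 CPM in control hepatocytes.

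Among the Cyp3a enzymes, the mouse counterparts of the main human drug-metabolising P450, Cyp3a11 and Cyp3a25 fell. Cyp3a11, the standard PXR target, had 53.3 and 171 CPM in macro-metastatic, 571 and 363 CPM in pre-metastatic and 1149 and 782 CPM in control hepatocytes (macro-metastatic against control log2 fold change -3.24 ± 0.60 SE, edgeR adjusted p = 0.0109). Cyp3a25 had no UMI in macro-metastatic library 1 and 91.9 CPM in library 2, 331 and 241 CPM in pre-metastatic hepatocytes, and 710.2 and 506 CPM in control hepatocytes (-3.53 ± 0.70 SE, edgeR adjusted p = 0.0140). Both were ordered macro-metastatic, pre-metastatic, control from low to high with no overlap. The other 4 Cyp3a genes tested did not pass, and the subfamily median was -2.84. Cyp3a13, the member made mostly in the intestine, had 13.3 and 37.2 CPM in macro-metastatic, 65.2 and 56.6 CPM in pre-metastatic and 43.7 and 38.6 CPM in control hepatocytes, and its estimate of -0.64 did not pass (edgeR adjusted p = 0.380).

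Of 12 Cyp2c genes tested, 5 fell, with a subfamily median of -2.01. Cyp2c29, an arachidonic acid epoxygenase and CAR target, had 53.3 and 199 CPM in macro-metastatic, 611 and 624 CPM in pre-metastatic and 1057 and 792 CPM in control hepatocytes. It fell by 2.99 in macro-metastatic against control (SE 0.58, edgeR adjusted p = 0.0124) and by 2.43 against pre-metastatic hepatocytes (SE 0.57, adjusted p = 0.0390). The others were Cyp2c40 (-2.98), Cyp2c37 (-2.61), Cyp2c50 (-2.35) and Cyp2c23 (-2.82), fatty acid oxidases of the same subfamily, with edgeR adjusted p between 0.0113 and 0.0386. Cyp2c70, which makes the muricholic acids of mouse bile, was less far apart, with 120.0 and 387 CPM in macro-metastatic, 912 and 499 CPM in pre-metastatic and 623 and 445 CPM in control hepatocytes. Its estimate of -1.28 did not pass (edgeR adjusted p = 0.198), nor did that of Cyp2c39 (-1.67, adjusted p = 0.0819).

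The Cyp2b enzymes, known as CAR targets, had 2 calls in 3 tests. Cyp2b13 had 13.3 and 8.76 CPM in macro-metastatic hepatocytes, from 1 and 4 UMIs. It had 28.3 and 67.1 CPM in pre-metastatic and 199 and 89.3 CPM in control hepatocytes. Its fall of 4.25 (SE 0.81, edgeR adjusted p = 0.0118) is uncertain in size, with so few macro-metastatic UMIs. Cyp2b9 fell by 2.04 (SE 0.51, adjusted p = 0.0352). Cyp2b10, the textbook CAR target, was low throughout, at 0 and 4.38 CPM in macro-metastatic, 4.54 and 4.92 CPM in pre-metastatic and 19.2 and 17.5 CPM in control hepatocytes. Its estimates of -2.58 for macro-metastatic and -1.92 for pre-metastatic against control hepatocytes did not pass (edgeR adjusted p = 0.0610 and 0.0688), although both disease groups lay below both controls.

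In the Cyp2d subfamily, related to human CYP2D6, Cyp2d10 (-2.27) and Cyp2d26 (-2.04) fell and Cyp2d40 did not pass. Cyp2d40 had 13.3 and 24.1 CPM in macro-metastatic, 33.3 and 36.0 CPM in pre-metastatic and 21.4 and 16.6 CPM in control hepatocytes, so its pre-metastatic libraries were the highest. Of the Cyp2j epoxygenases, Cyp2j6 fell by 2.75 (SE 0.73, edgeR adjusted p = 0.0439), and Cyp2j5, with 0 and 101 CPM in macro-metastatic, 279 and 206 CPM in pre-metastatic and 315 and 203 CPM in control hepatocytes, did not pass (adjusted p = 0.0690). Cyp2g1, an enzyme known from rodent nasal mucosa, fell by 2.11 (SE 0.56, adjusted p = 0.0446). Cyp4v3, a fatty acid omega-hydroxylase, fell by 1.58 (SE 0.40, adjusted p = 0.0352), with 53.3 and 39.4 CPM in macro-metastatic, 59.3 and 65.2 CPM in pre-metastatic and 117 and 83.1 CPM in control hepatocytes.

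The PPARα-driven omega-hydroxylases Cyp4a10 and Cyp4a14 varied widely between replicates. Cyp4a14 had 0 and 24.1 CPM in macro-metastatic, 4.72 and 326 CPM in pre-metastatic and 165 and 129 CPM in control hepatocytes. The pre-metastatic libraries thus held both the highest value and one of the lowest. Cyp4a10 had 0 and 13.1 CPM in macro-metastatic, 2.08 and 70.1 CPM in pre-metastatic and 87.2 and 39.9 CPM in control hepatocytes. Neither passed in the 3 comparisons of hepatocytes, but both fell in macro-metastatic against control hepatocytes once the high-mitochondrial ones were added (Cyp4a10 -4.01, Cyp4a14 -4.20, edgeR adjusted p = 0.0423 and 0.0486). Cyp4b1 had 453 and 120.4 CPM in macro-metastatic, 38.9 and 61.2 CPM in pre-metastatic and 140 and 158 CPM in control hepatocytes, and its part from the endothelial RNA marked above was not tested. Cyp4f16 had 2 and 6 UMIs (26.7 and 13.1 CPM) in macro-metastatic, 2.83 and 3.08 CPM in pre-metastatic and 2.64 and 2.08 CPM in control hepatocytes, and its estimate of +2.35 did not pass (edgeR adjusted p = 0.0674). Its part from RNA of other cells was not tested. Cyp1a1 had no UMI in macro-metastatic, 2 in pre-metastatic and 39 in control hepatocytes, where 3 counts over both macro-metastatic libraries would be 5.64 CPM.

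**Figure D1:**
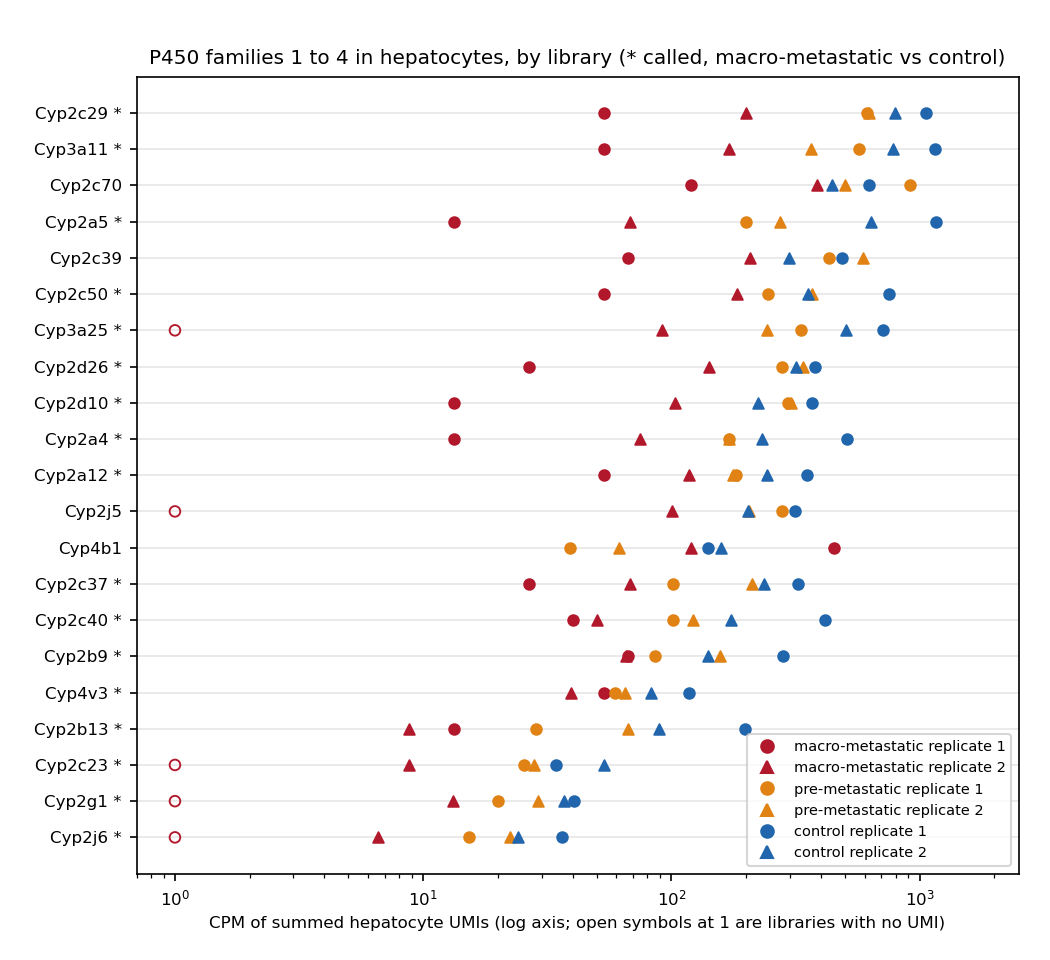
CPM per library in hepatocytes, on a log axis, of the 17 members that fell in macro-metastatic against control hepatocytes (marked with a star) and the other members among the 15 most abundant. Open symbols at 1 stand for no UMI. For Cyp2a5, Cyp3a11 and Cyp2c29 the macro-metastatic points are lowest, the control points highest and the pre-metastatic points between them.

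Leaving out control library 1, the library with the highest share, left 3 of the 17 calls, Cyp2a5, Cyp2b13 and Cyp2c23. Calls were fewer without macro-metastatic library 1 and more without either pre-metastatic library. The shares of all genes called in these fits are not given here, so the numbers of calls are not set against a background.

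**Figure D2:**
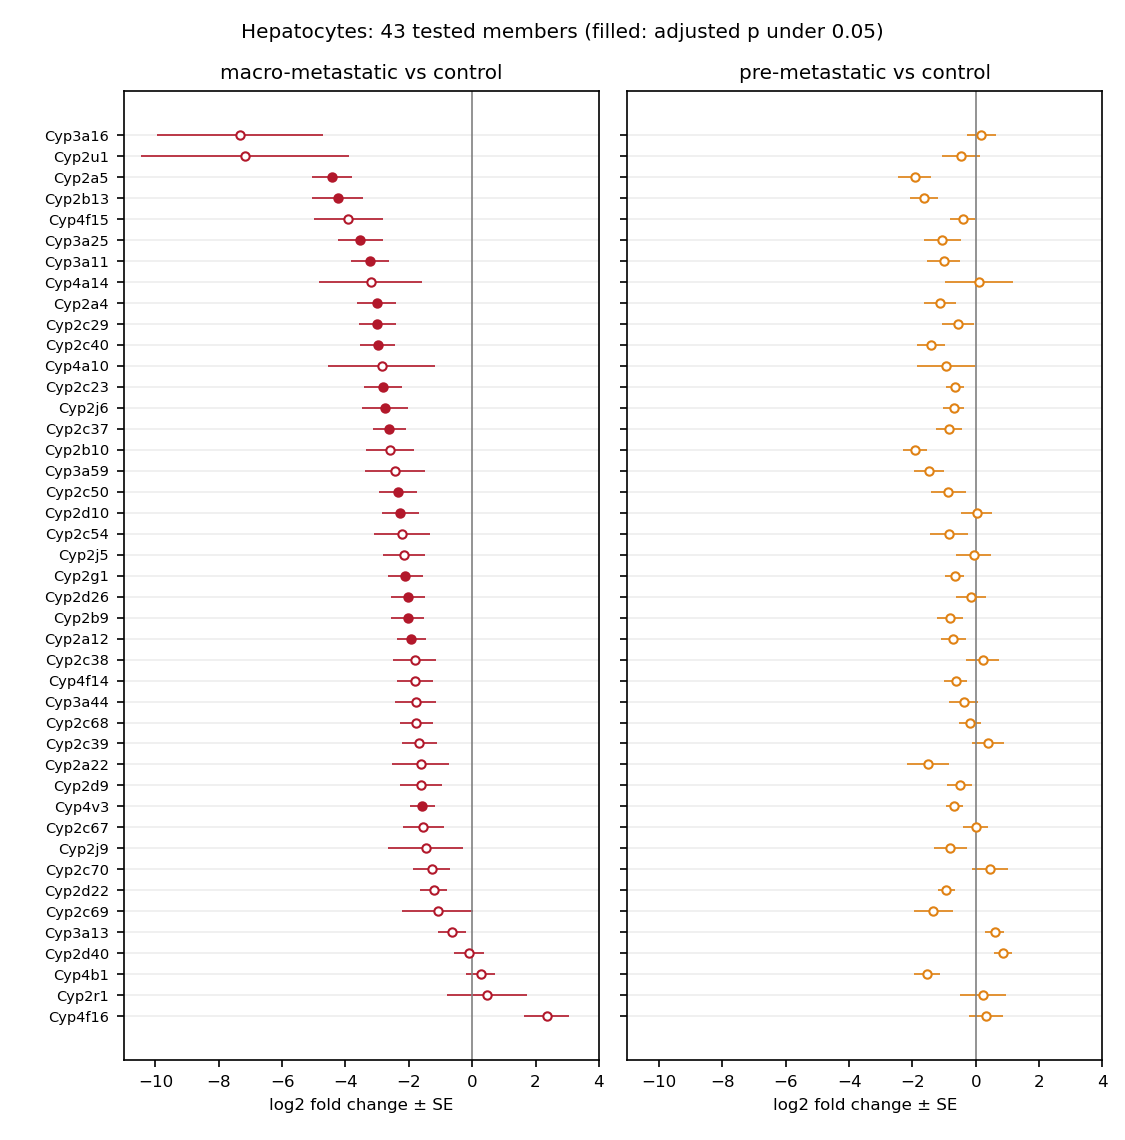
Log2 fold change ± SE of the 43 tested members in hepatocytes, for macro-metastatic against control (left) and pre-metastatic against control (right). Filled points have an edgeR adjusted p under 0.05. There are 17 of them on the left, all below 0, and none on the right.

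No member was called when pre-metastatic hepatocytes were set against control hepatocytes, where edgeR's quasi-likelihood test called 0.356% of all genes. DESeq2 called 0 as well, though the count changed when single libraries were left out, as given below. The estimate was negative for 33 members and positive for 10, with a median of -0.66, against 0.006 for all genes. Both pre-metastatic libraries were below both controls for 19 of the 43, against 21.8% of genes. The lowest estimates were those of Cyp2a5 (-1.93, edgeR adjusted p = 0.185), Cyp2b10 (-1.92) and Cyp2b13 (-1.64, adjusted p = 0.206). With the high-mitochondrial hepatocytes added, 5 of 47 members fell, Cyp2a5 (-2.03), Cyp2b10 (-2.49), Cyp2b13 (-2.07), Cyp3a59 (-2.20) and Cyp1a1 (-4.58), where 0.984% of genes were called. Cyp2a5 then stood at 23.1 and 50.1 CPM of non-mitochondrial UMIs in macro-metastatic, 228 and 318 CPM in pre-metastatic and 1323 and 991 CPM in control hepatocytes. Cyp2b10 stood at 0 and 6.53 CPM, 6.29 and 5.76 CPM, and 37.1 and 35.6 CPM in the same order.

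Between macro-metastatic and pre-metastatic hepatocytes, Cyp2a5 and Cyp2c29 fell and no member rose, where 4.55% of genes were called and 1.28% were called as lower. The estimate was negative for 39 of 43 members, with a median of -1.57, against -0.11 for all genes, and both macro-metastatic libraries were below both pre-metastatic libraries for 33, against 23.8% of genes. Neither call remained without control library 1, and calls were more without pre-metastatic library 2. The shares of all genes called in those fits are not given here. Adding the high-mitochondrial hepatocytes gave 25 members that fell, where 27.5% of genes were called.

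Some other enzymes of drug metabolism fell in macro-metastatic hepatocytes as well. Of 23 other phase I enzymes tested, 8 fell and none rose in macro-metastatic against control hepatocytes, and all 23 estimates were negative (median -1.79). Ces1d, a carboxylesterase, had 26.7 and 78.8 CPM in macro-metastatic, 114 and 251 CPM in pre-metastatic and 735 and 410.1 CPM in control hepatocytes (log2 fold change -3.50). Of 27 phase II enzymes, which conjugate the products of P450s, 7 fell and none rose (median -1.32), Ugt2b5 (-3.70) among them. Of 9 P450s of families 7 to 51, only Cyp7a1, the first enzyme of bile acid synthesis, fell (-6.87), with 13.3 and 0 CPM in macro-metastatic, 62.4 and 84.3 CPM in pre-metastatic and 291 and 76.5 CPM in control hepatocytes. A fold this large rests on a single macro-metastatic UMI.

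Among the receptors and factors that control the family, of 22 tested, 4 fell and none rose in macro-metastatic against control hepatocytes, the PAR bZip factors Dbp (-3.98), Tef (-2.12) and Hlf (-2.06), which follow the circadian clock, and Nr0b2 (-2.46), a repressor of bile acid synthesis. In macro-metastatic hepatocytes Dbp had 1 and 1 UMIs and Nr0b2 had 1 and 2, so the sizes of their falls are uncertain. In pre-metastatic against control hepatocytes, 1 of the 22 fell and none rose. The time of day of sampling is not given in the sources used here. Nr1i2, which encodes PXR (-0.35, edgeR adjusted p = 0.708), Nr1i3, which encodes CAR (-1.20, adjusted p = 0.245), and Hnf4a (-0.29, adjusted p = 0.774) did not pass. Por, which encodes P450 reductase, did not pass either (+0.05, adjusted p = 0.973). Of 14 electron donor and haem genes, 2 rose, Hmox1 (+2.68), which breaks down haem, and Cyb5r3 (+1.28), and Cyb5b fell (-1.66). The part of the Kupffer and neutrophil RNA marked above in these rises was not tested.

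Some acute-phase genes, made by hepatocytes in inflammation, rose in the same cells. Of 21 tested, 7 rose and none fell in macro-metastatic against control hepatocytes, with Saa2 at +7.42, Saa1 at +5.75 and Hp at +4.66. Here too, the part of Kupffer and neutrophil RNA was not tested. Of the same 21, 8 rose and none fell in pre-metastatic against control hepatocytes, where no member was called. In macro-metastatic against pre-metastatic hepatocytes, 1 of the 21 rose and 5 fell, with a median of -1.89. Saa1 had 1559 and 3487 CPM in macro-metastatic and 20699 and 8205 CPM in pre-metastatic hepatocytes. In macro-metastatic against control hepatocytes, 5 of 10 genes known as female-predominant in mouse liver fell, and none of 5 known as male-predominant passed. Their medians were -2.99 and -2.87, and some of these genes are members themselves. The sexes of the mice were not analysed here.

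Hepatocytes were ranked within each library by the share of central-axis genes, such as Cyp2e1 and Cyp1a2, in the UMIs of central and portal genes, and the 1 of 3 parts with the highest shares (central-like) was compared with the lowest (portal-like). Such a part is a range of a score and not a cell type. Macro-metastatic library 1 was left out, with 11 cells at each end, and the other libraries had 44 (macro-metastatic), 316 and 273 (pre-metastatic), and 277 and 219 (control). Library was a block in the fit. Of 41 members tested, 18 were higher and 1 was lower in central-like hepatocytes in edgeR's quasi-likelihood test, where 12.6% of 9357 genes were called, 7.84% as higher and 4.75% as lower. Without a pre-metastatic library the count fell to 11 (library 1 left out) or 10 (library 2 left out). The estimate was positive for 33 members, with a median of 0.72, against 0.01 for all genes. The axis genes include P450s, and with those left out of the ranking 11 of 40 members were higher and 3 were lower, where 14.5% of genes were called, 8.73% as higher and 5.81% as lower. The median was then 0.18 with 24 positive estimates, and 12 of the 19 calls were kept, among them Cyp2c38, Cyp2a5, Cyp2d9 and Cyp4b1. The members lower in that ranking were Cyp2a12 (-1.43), Cyp2d26 (-0.73) and Cyp2j5 (-0.70).

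Cyp2c genes led the central-like end, with 8 of 12 called. Cyp2c38 had 119 CPM in central-like and 0 CPM in portal-like cells of macro-metastatic library 2, 230.0 against 22.3 and 378 against 64.8 CPM in the pre-metastatic libraries, and 365 against 61.1 and 158 against 25.7 CPM in the controls. It was higher in central-like cells in all 5 libraries, by 2.78 on the log2 scale (SE 0.20). Cyp2c69 (2.82), Cyp2c54 (2.50), Cyp2c50 (2.19) and Cyp2c37 (1.79) were also called, whereas Cyp2c29 (0.55) and Cyp2c70 (0.17) were not. Cyp2c29, the most abundant of them, had 934 CPM in central-like and 332 CPM in portal-like cells of pre-metastatic library 1, but 670.5 against 1020 CPM in control library 2.

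Cyp2a5 and Cyp2a12 of the same gene cluster went opposite ways. Cyp2a5 had 132 CPM in central-like and 9.20 CPM in portal-like cells of macro-metastatic library 2, 408 against 31.3 and 650.1 against 79.9 CPM in the pre-metastatic libraries, and 2272 against 401.5 and 1032 against 328 CPM in the controls (log2 difference 2.65 ± 0.28 SE, edgeR adjusted p = 2.5e-05). Cyp2a12 was the member that was lower in central-like cells, by 0.68 in log2 units (SE 0.20, adjusted p = 0.0390). It had 149 CPM in central-like and 226 CPM in portal-like cells of pre-metastatic library 1 and 125 against 362 CPM in control library 2, but 157 against 138 CPM in macro-metastatic library 2. Cyp2d9, a steroid 16-alpha-hydroxylase, was higher by 2.56 (SE 0.20). Cyp3a16 (6.09) had 1 UMI in portal-like cells, so its size is uncertain, and Cyp3a11 (0.60) did not pass. Central-like and portal-like Cyp3a11 were 836.5 against 433 CPM in pre-metastatic library 1 and 555 against 1094 CPM in control library 2.

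Cyp4b1 was higher in central-like hepatocytes by 1.92 (SE 0.20, edgeR adjusted p = 1.8e-05), at 68.7 CPM in central-like and 16.6 CPM in portal-like cells of pre-metastatic library 1 and 312 against 60.9 CPM in control library 2. Endothelial markers were also higher at that end in all 5 libraries, at 0.538% of UMIs in central-like and 0.230% in portal-like cells of macro-metastatic library 2, 0.156% against 0.0497% and 0.397% against 0.0930% in the pre-metastatic libraries, and 0.439% against 0.202% and 0.646% against 0.140% in the controls. Their part in the Cyp4b1 value was not tested. Other axis genes of the pathway included Por (0.98) and Ahr (1.00), both higher in central-like cells, and Cyp7a1 (3.40). Of the other lists, 8 of 23 phase I enzymes were higher and 2 lower, and 4 of 26 phase II enzymes were higher and 7 lower.

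Whether the central to portal difference itself differed between pre-metastatic and control livers was tested with an interaction term, added after the first results were seen. None of 40 members passed in edgeR's quasi-likelihood test, where 0.0229% of genes were called. At an unadjusted p under 0.05 there were 22 members, against 709 of the 8739 genes tested. The lowest adjusted p of a member was 0.0583 with 2 residual degrees of freedom. Fitted apart, the pre-metastatic libraries gave 31 calls and the control libraries 10, of 38 members tested in each. The shares of all genes called in these separate fits are not given here, so the counts are not set against a background.

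**Figure D3:**
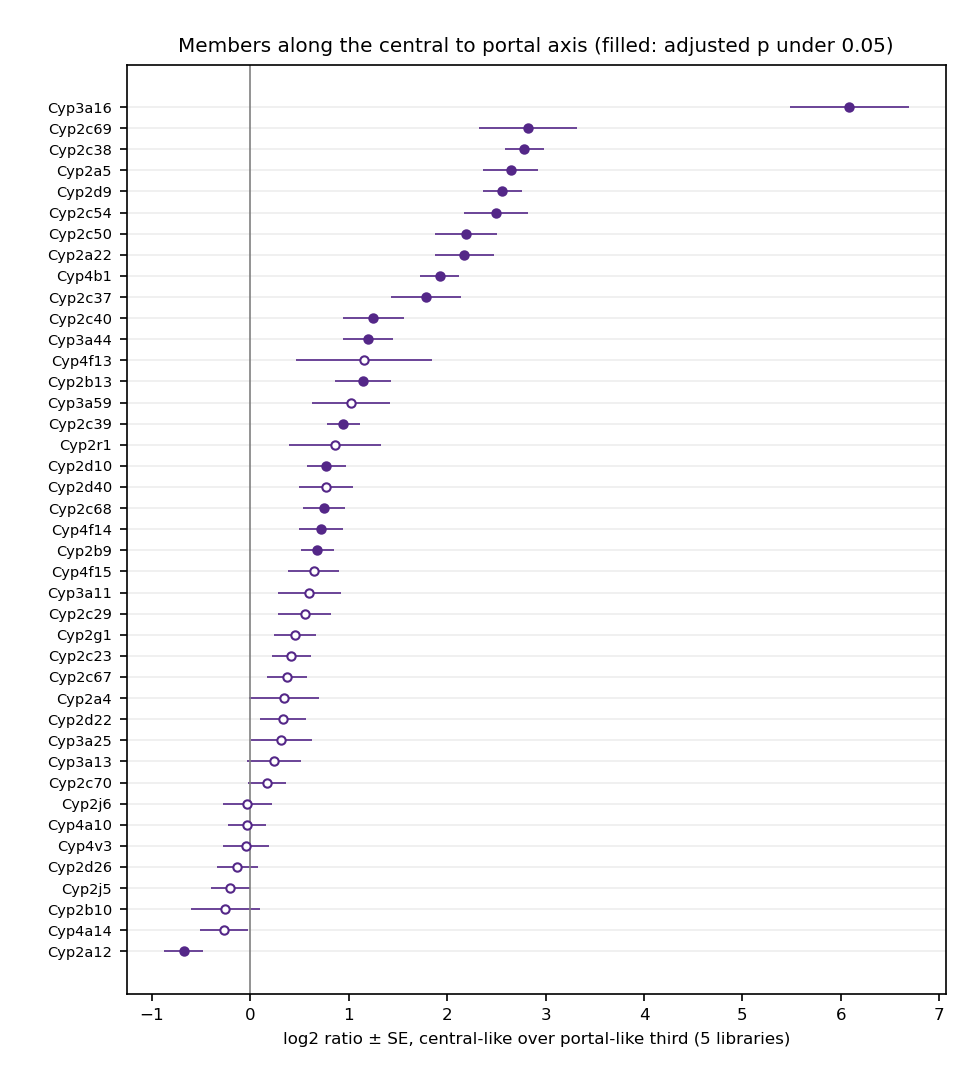
Log2 difference ± SE between central-like and portal-like hepatocytes for the 41 tested members, over 5 libraries with library as a block. Filled points have an edgeR adjusted p under 0.05. There are 18 above 0, from Cyp2b9 at 0.68 to Cyp3a16 at 6.09, and 1 below 0, Cyp2a12 at -0.68.

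In endothelial cells Cyp4b1 was lower in macro-metastatic livers. It had 730.1 and 519 CPM in macro-metastatic, 1096 and 902 CPM in pre-metastatic and 1367 and 1384 CPM in control endothelium, over 1848 and 2732, 1213 and 2642, and 2780 and 4388 cells. The 3 groups did not overlap. Its log2 level fell by 0.96 in macro-metastatic against control endothelium (SE 0.19, edgeR adjusted p = 0.0108), where 23.3% of genes were called and 8.39% were called as lower. The fall lost its call without control library 1 (-0.93, adjusted p = 0.0914) or control library 2 (-0.97, adjusted p = 0.0758). The estimates for pre-metastatic against control (-0.46, edgeR adjusted p = 0.601) and macro-metastatic against pre-metastatic endothelium (-0.50, adjusted p = 0.116) did not pass, though the second passed without macro-metastatic library 1 (-0.72, adjusted p = 0.0185).

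The share of endothelial cells with a Cyp4b1 UMI was 82.4% and 78.2% in macro-metastatic, 84.3% and 85.7% in pre-metastatic and 89.3% and 89.3% in control livers, at median depths of 6671 and 5948, 3459 and 3437.5, and 3153 and 2696 UMIs. Thinned to 1000 UMIs per cell, with 151 and 202, 86 and 113, and 176 and 276 shallower cells left out, it was 46.0% and 38.7%, 63.2% and 55.4%, and 69.9% and 71.6%. Both scales gave the same order of the groups. T cells, which should lack the enzyme, had a thinned share of 0.452% and 0.277% in macro-metastatic, 0.617% and 1.20% in pre-metastatic and 1.42% and 1.89% in control livers.

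In 4 of the 5 endothelial clusters both macro-metastatic libraries were below all 4 others, and the other cluster held too few cells of the other groups. In the largest cluster of control endothelium, Cyp4b1 had 642 and 558 CPM in macro-metastatic, 1239 and 1078 CPM in pre-metastatic and 1393 and 1432 CPM in control cells. In a cluster led by Vwf, Rspo3 and Wnt9b, markers of central vein endothelium, it was lower, at 274 and 109 CPM in macro-metastatic, 793 and 425 CPM in pre-metastatic and 729 and 819 CPM in control cells. A cluster led by the adhesion genes Sele and Selp held 66.8% and 97.4% of macro-metastatic endothelial cells, with 723 and 524 CPM. Few macro-metastatic cells, 13, 16 and 10 of library 2, lay in 3 clusters that held many cells of the other groups, the first cluster among them, and Cyp4b1 was itself a leading gene of that one.

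**Figure D4:**
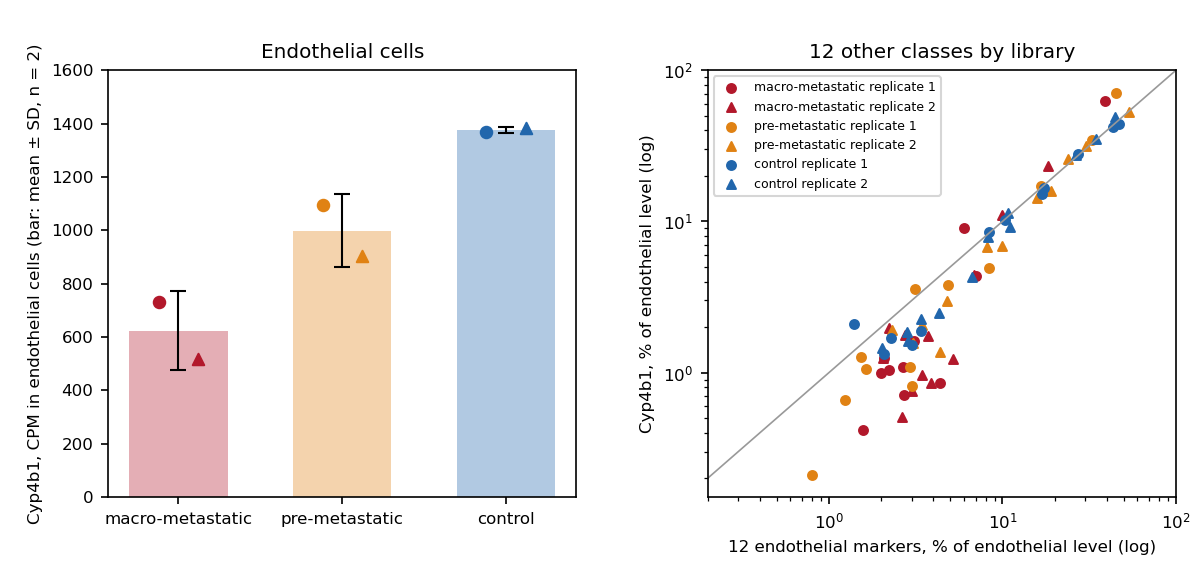
Left, Cyp4b1 in endothelial cells in CPM, with bars at the mean, error bars of 1 SD (n = 2) and a point per library; the macro-metastatic points, at 730.1 and 519, lie below the control points at 1367 and 1384. Right, Cyp4b1 in 12 other classes against 12 endothelial markers, both as a percent of the endothelial level in the same library on log axes, with a line of equality. The points of T cells, B cells and neutrophils lie below the line, and those of control Kupffer cells lie near it.

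Cyp1a1 fell beside Cyp4b1 in macro-metastatic endothelium, at 5.0 and 6.33 CPM in macro-metastatic, 5.79 and 1.29 CPM in pre-metastatic and 31.8 and 49.2 CPM in control endothelium (-2.64 ± 0.46 SE, edgeR adjusted p = 0.00718). Its pre-metastatic estimate of -3.73 did not pass (adjusted p = 0.0664), although both pre-metastatic libraries lay below both controls. In all, 18 of 33 members tested fell and none rose, and the other 16 that fell are members that peak in hepatocytes. One of them was Cyp2u1, a long-chain fatty acid hydroxylase (-2.34, adjusted p = 0.0322). In endothelium their levels stood beside hepatocyte markers at 0.497% to 1.24% of the hepatocyte level. No member was called in pre-metastatic against control endothelium (0.143% of genes called) or in macro-metastatic against pre-metastatic endothelium (13% called).

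In Kupffer cells, liver macrophages that line the sinusoids, 17 of 30 members tested fell in macro-metastatic against control libraries, where 36.9% of genes were called. Cyp4b1 had 31.9 and 22.8 CPM in macro-metastatic, 188 and 232 CPM in pre-metastatic and 381 and 381 CPM in control Kupffer cells. As a percent of the endothelial level this was 4.37% and 4.39%, 17.1% and 25.7%, and 27.9% and 27.5%. The 12 endothelial markers stood at 7.07% and 6.85%, 16.6% and 23.8%, and 27.2% and 26.4% in the same cells, so both quantities moved together. Cyp1a1 was at 0.0350 and 0.130 CPM in macro-metastatic, 0.258 and 0.138 CPM in pre-metastatic and 6.58 and 5.23 CPM in control Kupffer cells. It was the 1 member called in any class other than hepatocytes between pre-metastatic and control libraries (-4.80 ± 0.54 SE, edgeR adjusted p = 0.0232, with 0.418% of genes called). These levels were 0.699% and 2.05%, 4.45% and 10.7%, and 20.7% and 10.6% of those in endothelium, in the same order. The part of endothelial RNA in them was not tested.

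Over the 12 classes tested other than hepatocytes, endothelium and Kupffer cells included, 69 calls were lower and 3 were higher in macro-metastatic against control libraries. The lower calls were mostly members that peak in hepatocytes, or Cyp4b1, and their part from RNA of other cells was not tested. In these classes 5.46% to 36.9% of genes were called. T cells had 14 of 20 members called (26.1% of genes), neutrophils 7 of 12 (9.69%), B cells 4 of 5 (17.9%), and monocytes and macrophages 3 of 9 (8.84%). NK cells had 1 of 4 (15.3%) and plasmacytoid dendritic cells 1 of 4 (5.46%). The 72 calls in all became fewer without control library 1 or without macro-metastatic library 1. The shares of all genes called in those fits are not given here. In T cells the members that peak in hepatocytes stood at 0.810% to 2.55% of their hepatocyte level, beside 0.472% to 1.8% for the hepatocyte markers.

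The 3 higher calls were of Cyp1b1, Cyp4f16 and Cyp4f18. Cyp1b1, an AHR target that also oxidises oestrogens, had 274.5 and 363 CPM in macro-metastatic, 0 and 35.1 CPM in pre-metastatic and 4.41 and 4.67 CPM in control mesothelial cells. Its log2 level rose by 6.21 in macro-metastatic against control cells (SE 0.73, edgeR adjusted p = 0.000576, 22.7% of genes called) and by 3.93 against pre-metastatic cells (adjusted p = 0.00222, 20.6% called). The counts behind it were 226 and 973 UMIs in macro-metastatic, 0 and 17 in pre-metastatic and 1 and 3 in control cells. Cyp4f16 rose by 1.84 in conventional dendritic cells (SE 0.31, edgeR adjusted p = 0.0133, 11.1% of genes called), with 53.8 and 56.6 CPM in macro-metastatic, 47.2 and 30.2 CPM in pre-metastatic and 13.4 and 20.6 CPM in control cells. Cyp4f18 rose by 3.66 in basophils and mast cells (SE 0.58, edgeR adjusted p = 0.00125, 25.4% of genes called), with 163 and 223 CPM in macro-metastatic, 36.9 and 13.5 CPM in pre-metastatic and 10.9 and 35.9 CPM in control cells, and by 3.38 against pre-metastatic cells (adjusted p = 0.00063, 29.2% called). In neutrophils Cyp4f18 had 49.8 and 64.0 CPM in macro-metastatic, 80.9 and 66.7 CPM in pre-metastatic and 20.7 and 52.3 CPM in control libraries, below the basophil level in the macro-metastatic group.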

How the data were processed

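The deposited files hold UMI counts for each gene in each barcode, without scaling. CASAVA 1.8, UMI-tools and the build mm10 are named in the submitters' processing notes; aligner and annotation: not given in the sources used here. Barcodes needed 300 genes and a mitochondrial share under 25% (66935 of 71908 passed). Doublets predicted at a score over 0.2821 (2.30%) were left out. Clustering used 2000 variable genes, with P450 families 1 to 4 left out, 30 principal components, 15 neighbours and Leiden resolution 1 (scanpy 1.11.5, Python 3.11.15). The 40 clusters were named from marker lists (at least 3 markers, each in 10% of cells), so a name means "like" that type. Those with over 30% doublets were set apart.

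UMIs were summed per class and library and tested with edgeR 4.0.16 (R 4.3.3) using filterByExpr, TMM scaling and the quasi-likelihood test over all 6 libraries, two-sided, Benjamini-Hochberg adjusted over the genes of a class. Classes with under 10 cells in a library were not tested. CPM in the text are unscaled, whereas fold changes are TMM-scaled; the factors in hepatocytes were 1.39 and 1.08 (macro-metastatic), 0.845 and 0.945 (pre-metastatic), and 0.859 and 0.976 (control). Alternatives were RLE scaling, DESeq2 1.42.0, no filter, GC offsets, a replicate block, doublets kept, other gates and leaving out each library. Scripts were tested on simulated data. The members and gene lists were chosen with earlier results of these data known. Named are members called in any comparison, the 15 most abundant in hepatocytes, those highest in another class, and up to 4 called genes of a list; other genes were named after their values were seen.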

Additional observations from a re-analysis of the deposited data

Results flagged for a closer look

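Cyp2c55, a fatty acid oxidase known from mouse intestine, stood at 55.5 CPM in macro-metastatic library 2 in an unnamed cluster with Krt20 among its leading genes, a class that no comparison used. Of its 271 UMIs over all barcodes, 236 lay in that library and cluster. Leaving out predicted doublets, the cluster had 425 cells of that library, 2 of macro-metastatic library 1, none of the pre-metastatic libraries and 1 of control library 2. In the other classes of macro-metastatic library 2 it was at most 0.498 CPM. With 1 library holding the cluster, no test was run.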

How the results depend on the processing

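The direction of the fall in macro-metastatic against control hepatocytes held for the 17 called members in all 15 alternatives, but their number did not. Against 17 calls, there were 37 with no filter on low counts, 37 with high-mitochondrial hepatocytes added (chosen after seeing the data), 10 with doublets kept, 9 with a gate of 10% hepatocyte marker UMIs (2 and 3 macro-metastatic cells) and 3 to 33 when a library was left out. Against 0 calls for pre-metastatic against control, these gave 8, 5, 0, 7 and 0 to 8, and barcodes under 1% other markers gave 7. Against 2 for macro-metastatic against pre-metastatic, they gave 29, 25, 0, 1 and 0 to 19, with 5 under RLE scaling, 9 under DESeq2 and 7 under 1% other markers. In the other classes, 72 calls for macro-metastatic against control became 133 with no filter and 23 to 72 without a library. The 1 call for pre-metastatic against control became 39 with no filter, 8 under DESeq2, 5 with doublets kept and 0 to 11 without a library. The 21 for macro-metastatic against pre-metastatic became 57 with no filter and 7 to 15 without a library. The 19 calls along the axis became 14 without P450s among the axis genes (7 lost, 2 gained), 10 in control libraries, 31 in pre-metastatic libraries and 10 to 23 without a library. The cause of these moves was not tested, and for most of these settings the share of all genes called is not given here. The member share was 0.553% (macro-metastatic), 1.07% (pre-metastatic) and 1.57% (control) under the gate, 0.708% (pre-metastatic) and 1.37% (control) with high-mitochondrial hepatocytes, and for pre-metastatic 0.549% with doublets and 0.632% of non-mitochondrial UMIs. Without a library it was 0.128% to 0.272%, 0.561% to 0.610% and 0.681% to 1.09% for macro-metastatic, pre-metastatic and control.

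Endothelial Cyp4b1 without a library ran from -1.19 to -0.76 (macro-metastatic against control), -0.56 to -0.37 (pre-metastatic against control) and -0.72 to -0.30 (macro-metastatic against pre-metastatic). Signs turned for estimates that did not pass. Hepatocyte Cyp4b1 in macro-metastatic against control turned to -0.54 without macro-metastatic replicate 1 (highest 0.99 without replicate 2), -0.62 under 1% other markers and -0.51 with high-mitochondrial hepatocytes, and against pre-metastatic to -0.48 under 1% other markers. For pre-metastatic against control, Cyp2d10 turned to -0.010 under RLE, -0.0099 under DESeq2, -0.040 with doublets, -0.12 under 1% other markers, -0.52 with high-mitochondrial hepatocytes and -0.37 to 0.55 without a library. Cyp2d26 turned to 0.073 and Cyp2j5 to 0.21 under the gate, and without a library Cyp2d26 ran from -0.36 to 0.092, Cyp2j5 from -0.43 to 0.40, Cyp2c39 from -0.0049 to 0.89 and Cyp2c70 from -0.16 to 0.87. The replicate block gave 9, 0 and 0 hepatocyte calls and 65, 5 and 20 in other classes, in the order of comparisons above. Replicate differences of the groups correlated with r of -0.164 to 0.187. Such values cannot decide whether same-numbered libraries belong together, and the labels do not say. Leaving out a library leaves 1 in its group, assumed to vary like the others. Depth limits the macro-metastatic hepatocytes, with 96 and 1241 member UMIs.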
